A study of Homo sapiens with 7 samples.

Results

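The 9 genes described here were TFAP2A, TFAP2B, TFAP2C, GATA2, GATA3, HAND1, CDX2, VTCN1 and GABRP, which are known as genes of the early amnion and of surface ectoderm. They were listed by name and matched by Ensembl ID to the table of 66025 genes, and they were picked because several of them were higher in the libraries with induced METTL14 shRNA. The 2 differences between those libraries and the control groups therefore describe the genes and are given without a test. All 9 were among the 22926 genes that passed the filter on low counts.

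RNA-seq was performed on β-like cells made from the established human embryonic stem cell line H1 and sorted with a zinc-binding dye at the last stage of an in vitro differentiation. Cells labelled iKD2 carried a lentiviral shRNA against METTL14 under control of doxycycline (Dox), where METTL14 is part of the complex that writes the m6A mark on mRNA, and cells labelled iSCR carried a lentiviral scramble shRNA. The groups were iKD2 with Dox (iKD2 Dox+, libraries a, b and c), iKD2 without Dox (iKD2 Dox-, b and c) and iSCR with Dox (iSCR Dox+, a and b). All were selected with puromycin, only 1 shRNA against METTL14 was sequenced, and iSCR cells without Dox were not analysed here, so that the line and the Dox treatment cannot be told apart between the control groups. The study calls the libraries independent biological samples without saying whether each was a differentiation of its own, and p-values measure the spread between these libraries.

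AP-2 proteins, encoded by the TFAP2 genes, bind DNA as dimers and act in trophectoderm, amnion, surface ectoderm and neural crest. GATA2 and GATA3 are zinc finger factors that work beside AP-2 proteins in trophoblast and amnion, HAND1 is a basic helix-loop-helix factor of extra-embryonic mesoderm, amnion and heart, and CDX2 is a homeobox factor of trophectoderm and intestine. BMP signalling switches on several of these factors when pluripotent cells are driven toward amnion. VTCN1 (B7-H4) is a cell surface protein that restrains T cells, and GABRP is the pi subunit of the GABA-A receptor, found in epithelia; both are used as amnion markers in stem cell cultures.

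Total estimated counts ranged from 14875429 to 20639156 per library. Levels are CPM, the counts of a gene relative to the library's total after TMM, an adjustment for differences in composition between libraries. Values of a group follow the order of its library letters. METTL14 itself measured 18.7, 16.3 and 49.1 CPM in iKD2 Dox+, with 39.4 and 22.6 CPM in iKD2 Dox- and 36.1 and 32.2 CPM in iSCR Dox+. The highest METTL14 level was thus in the library labelled iKD2 Dox+ c, against its label, and counts over the 9 genes are given with and without it. INS, the insulin gene, was at 11365 to 13581 CPM in iKD2 Dox+, at 14630 and 17393 CPM in iKD2 Dox- and at 21507 and 22298 CPM in iSCR Dox+. Of 17 listed β-cell markers 15 had counts in every library and 2 were at 0 in some, and their summed level, of which INS and CHGA made up 89.0% to 92.1%, was lowest in iKD2 Dox+, at 26665 to 30942 CPM against 35300 to 39211 CPM in iKD2 Dox- and 41489 to 41724 CPM in iSCR Dox+. In bulk RNA, more cells of a type and more RNA per cell cannot be told apart, for the 9 genes as for INS.

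Every one of the 9 genes had a higher mean level in iKD2 Dox+ than in either control group. Summed over the 9 genes, the level reached 634, 503 and 494 CPM in iKD2 Dox+. It reached 191 and 108 CPM in iKD2 Dox- and 222 and 239 CPM in iSCR Dox+. VTCN1 and GABRP together made up 29.6% to 45.3% of this sum, and without them it was 273 to 373 CPM in iKD2 Dox+ and 72.9 to 135 CPM in the 4 control libraries. The highest level of each gene was in an iKD2 Dox+ library, in library a for 5 genes (TFAP2A, GATA3, HAND1, VTCN1 and GABRP), in b for TFAP2B, GATA2 and CDX2, and in c for TFAP2C. The lowest level was in iKD2 Dox- c for 4 genes, in iSCR Dox+ b for 3, and in iKD2 Dox- b and iSCR Dox+ a for 1 each.

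**Figure D1:**
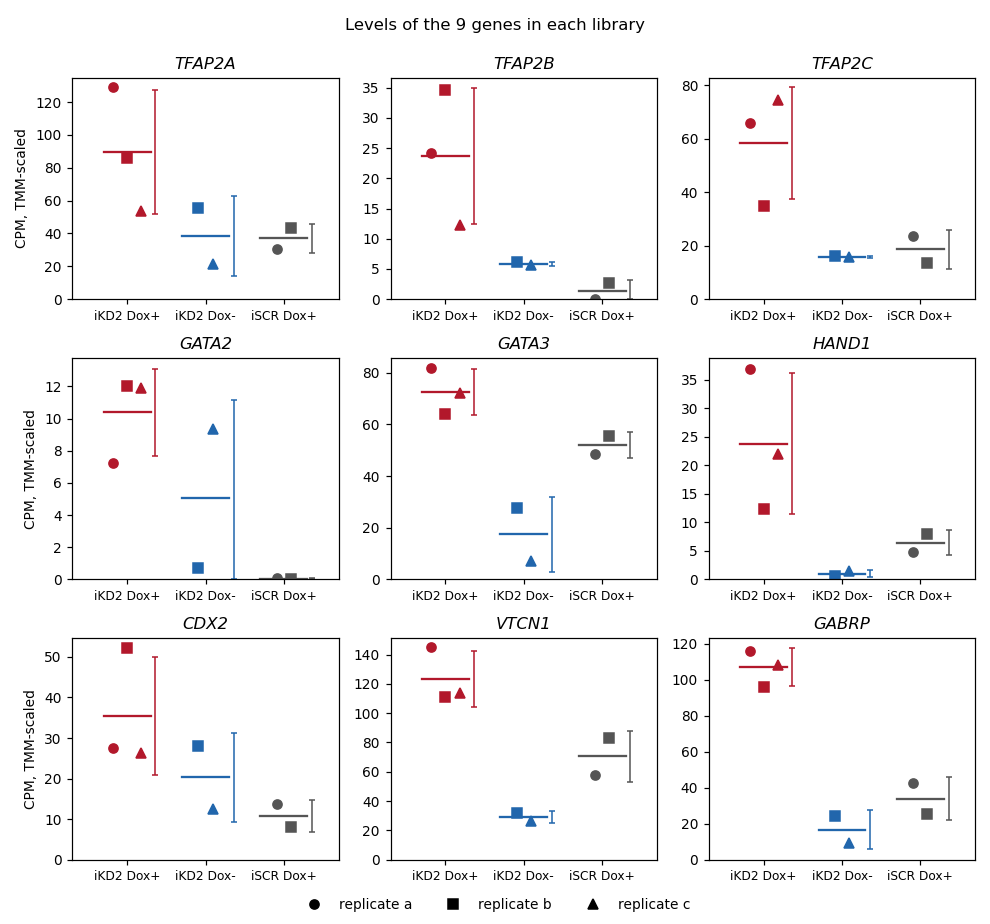
Level of each gene (TMM-scaled CPM, linear axis from 0) in the 7 libraries; points are libraries (circle a, square b, triangle c), horizontal lines are group means and bars are SD (n = 3, 2 and 2), with the lower bar stopped at 0. All 3 iKD2 Dox+ points lie above all 4 control points for TFAP2B, TFAP2C, GATA3, HAND1, VTCN1 and GABRP, while TFAP2A, GATA2 and CDX2 overlap with iKD2 Dox-.

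The AP-2 genes were all detected. TFAP2A (ENSG00000137203, chr6:10393186-10419659, minus strand; GENCODE release 29 on GRCh38, as for all positions here) was at 129, 85.7 and 53.7 CPM in iKD2 Dox+, at 55.5 and 21.2 CPM in iKD2 Dox- and at 30.8 and 43.1 CPM in iSCR Dox+. Its iKD2 Dox+ c value lay just below that of iKD2 Dox- b, so that the groups of this line overlapped, while all iKD2 Dox+ values exceeded both iSCR Dox+ values. TFAP2C (ENSG00000087510, chr20:56629302-56639283, plus strand), the AP-2 gene of trophectoderm and early germ cells, was at 65.8, 34.8 and 74.5 CPM in iKD2 Dox+, at 16.0 and 15.6 CPM in iKD2 Dox- and at 23.7 and 13.6 CPM in iSCR Dox+. No iKD2 Dox+ library overlapped with a control library. TFAP2B (ENSG00000008196, chr6:50818723-50847613, plus strand), which acts in neural crest and kidney, was at 24.2, 34.7 and 12.3 CPM in iKD2 Dox+, at 6.09 and 5.61 CPM in iKD2 Dox-, and at 0 and 2.68 CPM in iSCR Dox+. The iSCR Dox+ values rested on 0 and 40 counts. Against iKD2 Dox-, the log2 fold changes in iKD2 Dox+ were 1.22 (SE 0.49) for TFAP2A, 2.02 (SE 1.38) for TFAP2B and 1.88 (SE 0.60) for TFAP2C. Against iSCR Dox+ they were 1.28 (SE 0.49), 4.14 (SE 1.56) and 1.65 (SE 0.60), and both differences share the same 3 iKD2 Dox+ libraries.

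The GATA genes differed in how their control levels lay. GATA3 (ENSG00000107485, chr10:8045378-8075203, plus strand) was at 81.7, 63.9 and 72.0 CPM in iKD2 Dox+, at 27.7 and 7.13 CPM in iKD2 Dox- and at 48.5 and 55.6 CPM in iSCR Dox+. The 3 groups did not overlap, with iSCR Dox+ between the others. The difference was 2.06 on the log2 scale (SE 0.54) against iKD2 Dox- and 0.48 (SE 0.51) against iSCR Dox+. GATA2 (ENSG00000179348, chr3:128479427-128493185, minus strand) was at 7.24, 12.0 and 11.9 CPM in iKD2 Dox+ and at 0.731 and 9.37 CPM in iKD2 Dox-, where library c lay inside the iKD2 Dox+ range (log2 fold change 1.04, SE 1.89). In iSCR Dox+ GATA2 had 1 count in a and 0 in b, against 521 counts in the 3 iKD2 Dox+ libraries. The ratio of the summed counts per total count was 315, with an exact 95% interval from 56.2 to 12451 that covers counting error only.

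HAND1 (ENSG00000113196, chr5:154474972-154478264, minus strand) was at 37.0, 12.4 and 22.0 CPM in iKD2 Dox+, at 0.633 and 1.42 CPM in iKD2 Dox- and at 4.87 and 7.96 CPM in iSCR Dox+. It had the largest difference within the line, 4.53 on the log2 scale (SE 1.33), from 13 and 26 counts in iKD2 Dox-. Against iSCR Dox+ the difference was 1.89 (SE 1.15). CDX2 (ENSG00000165556, chr13:27962137-27971139, minus strand) was at 27.6, 52.3 and 26.4 CPM in iKD2 Dox+, at 28.1 and 12.5 CPM in iKD2 Dox- and at 13.7 and 7.96 CPM in iSCR Dox+. Its iKD2 Dox- b value exceeded 2 of the 3 iKD2 Dox+ values, and the log2 fold changes were 0.80 (SE 0.72) and 1.71 (SE 0.75).

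The 2 surface protein genes were separate from every control library. VTCN1 (ENSG00000134258, chr1:117143587-117210960, minus strand) was at 145, 111 and 114 CPM in iKD2 Dox+, at 32.2 and 26.1 CPM in iKD2 Dox- and at 58.1 and 82.9 CPM in iSCR Dox+. The 3 groups did not overlap and iSCR Dox+ was in between, as for GATA3. GABRP (ENSG00000094755, chr5:170763350-170814047, plus strand) was at 116, 96.0 and 108 CPM in iKD2 Dox+, at 24.4 and 9.04 CPM in iKD2 Dox- and at 42.4 and 25.4 CPM in iSCR Dox+. The lowest iKD2 Dox+ value exceeded the highest control value by more than the SD of either control group, 10.9 CPM in iKD2 Dox- and 12.0 CPM in iSCR Dox+ (n = 2 each). The log2 fold changes against iKD2 Dox- were 2.08 (SE 0.38) for VTCN1 and 2.67 (SE 0.50) for GABRP, and against iSCR Dox+ 0.81 (SE 0.36) and 1.65 (SE 0.47).

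**Figure D2:**
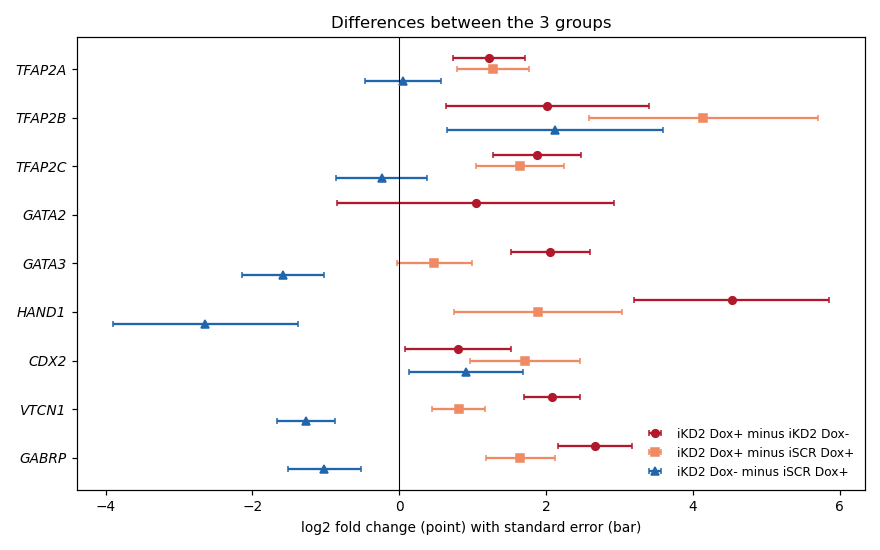
Log2 fold change (point) and its standard error (bar) of each gene in the 3 comparisons from the edgeR fit over all genes; GATA2 is left out of both comparisons with iSCR Dox+, where it had 1 count in all. Both differences of iKD2 Dox+ lie above 0 for every gene drawn, and the difference between the control groups lies below 0 for GATA3, HAND1, VTCN1, GABRP and TFAP2C.

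Promoters of the 9 genes were read to see which hold letters that AP-2 or GATA proteins recognise, since factors of both families are among the genes. RefSeq windows on GRCh38.p14, from 250 bases before to 50 after a transcription start, matched 8 of the 9 genes in 15 windows, and TFAP2C had no entry. The AP-2 motif GCCNNNGGC, a palindrome searched on both strands, was in 8 of these 15 windows (53.3%) and in 23.2% of all 35116 windows. Those 8 windows belonged to 5 genes, VTCN1, GATA2, GATA3, HAND1 and CDX2, and none was in the TFAP2A, TFAP2B and GABRP windows. The GATA motif AGATAA, also on both strands, was in 1 of 15 windows, that of CDX2, and in 10.3% of all windows. Windows of 1 gene are not independent, and GATA3 supplied more of the 15 windows than any other gene. In the windows with an AP-2 match the share of G and C ran from 50.3% (CDX2) to 74.7% (a GATA3 window). Most of them lay above the median of 58.7% over all windows, and the AP-2 motif is itself made of G and C where its letters are fixed. A match is a description of the sequence and not a bound site. The parts of 1 window each that lie outside annotated exons are shown for VTCN1 and GABRP, the surface protein genes with the highest levels, and for GATA3 and HAND1, the factors with the same order of groups, with AP-2 matches in capitals. The GABRP stretch lies inside that gene as GENCODE annotates it, which has an earlier start.
VTCN1 (chr1:117210961-117211177, minus strand): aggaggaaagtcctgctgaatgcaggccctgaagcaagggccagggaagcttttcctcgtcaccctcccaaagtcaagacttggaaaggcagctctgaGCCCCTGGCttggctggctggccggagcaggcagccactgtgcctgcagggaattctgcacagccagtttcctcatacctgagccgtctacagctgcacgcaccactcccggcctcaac
GABRP (chr5:170783475-170783690, plus strand): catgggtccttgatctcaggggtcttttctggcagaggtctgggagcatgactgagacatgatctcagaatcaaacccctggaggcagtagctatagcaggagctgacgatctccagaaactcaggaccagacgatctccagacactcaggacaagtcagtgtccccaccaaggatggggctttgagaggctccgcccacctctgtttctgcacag
GATA3 (chr10:8045083-8045332, plus strand): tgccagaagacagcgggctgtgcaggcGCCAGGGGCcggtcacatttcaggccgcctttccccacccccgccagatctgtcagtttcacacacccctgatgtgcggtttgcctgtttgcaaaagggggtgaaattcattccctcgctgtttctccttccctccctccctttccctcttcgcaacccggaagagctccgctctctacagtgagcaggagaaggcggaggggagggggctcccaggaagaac
HAND1 (chr5:154478265-154478477, minus strand): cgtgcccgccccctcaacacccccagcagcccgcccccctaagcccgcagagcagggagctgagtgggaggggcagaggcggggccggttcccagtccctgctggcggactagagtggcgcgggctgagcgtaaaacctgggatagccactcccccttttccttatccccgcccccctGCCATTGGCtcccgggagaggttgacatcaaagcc
VTCN1, GATA3 and HAND1 hold 1 AP-2 match each in the stretch shown and GABRP holds none. Not every GATA3 window holds a match, since those with transcription starts at 8049854, 8051236 and 8060457 hold none. All 4 genes had the order iKD2 Dox+, iSCR Dox+, iKD2 Dox- from high to low, and a link between matches and levels was not tested.

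The median log2 fold change of the 9 genes was 2.02 against iKD2 Dox-, where that of all genes tested was 0.01, and 1.65 against iSCR Dox+, where that of all genes was 0.08. The second median was also 1.65 with GATA2 placed at the lower limit of its counting interval. For 6 of the 9 genes the lowest iKD2 Dox+ library exceeded both iKD2 Dox- libraries, as for 8.72% of all genes tested, and for 9 of 9 it exceeded both iSCR Dox+ libraries, as for 11.3% of all genes. It exceeded all 4 control libraries for 6 of 9, as for 3.47% of all genes. Without the library labelled iKD2 Dox+ c, these 3 counts were 7, 9 and 7, with TFAP2A added to the 6 in the first and the last, and the medians were 2.06 and 1.64. Without iKD2 Dox- b the first and the last were 8, when TFAP2A and CDX2 also cleared the controls. Leaving out a library can only keep or raise such counts, for any genes, and the shares of all genes were not counted in these settings. The genes were chosen on these differences, so that nothing is read from these counts beside the background, and no calls are given for them here.

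The 9 genes were then compared between the 2 control groups. Both groups had served as controls in choosing the genes, and a choice of genes higher in iKD2 Dox+ than in iKD2 Dox- favours genes low in iKD2 Dox-, so that this comparison is not independent of the choice. None of the 9 passed an adjusted p under 0.05 in edgeR's test, which called 3 of 22926 genes, or 0.0131%. At an unadjusted p under 0.05 and a change over 1.5-fold, the criterion used by the study, the levels of GATA3, HAND1 and VTCN1 in iKD2 Dox- were lower, as were 1.75% of all genes, and GATA2 was higher, as were 2.63% of all genes. VTCN1 differed by -1.27 on the log2 scale (SE 0.39, adjusted p = 0.784), GATA3 by -1.58 (SE 0.56, adjusted p = 0.826) and HAND1 by -2.64 (SE 1.26, adjusted p = 0.826). GABRP differed by -1.02 (SE 0.50, adjusted p = 0.826), and for these 4 genes neither iKD2 Dox- library reached the iSCR Dox+ values, as for 13.2% of all genes. GATA2 had 187 counts in iKD2 Dox- and 1 in iSCR Dox+, a ratio of 146 (exact 95% interval 25.9 to 5808, counting error only, adjusted p = 0.826 in edgeR's test), but 172 of the 187 counts came from library c. It shared with TFAP2B an order in which both iKD2 Dox- libraries lay above both iSCR Dox+ libraries, found for 19.9% of all genes. TFAP2B differed by 2.12 (SE 1.47, adjusted p = 0.827) and CDX2 by 0.91 (SE 0.77, adjusted p = 0.898). TFAP2A and TFAP2C differed by 0.05 (SE 0.52) and -0.24 (SE 0.62), with an adjusted p of 1. The median over the 9 genes was -0.24, beside 0.04 for all genes. With DESeq2, 2 of the 9 genes were called, GATA2 and VTCN1, as were 428 of 20385 genes in all (2.1%), and with limma voom 0 of the 9, as were 0.0174% of all genes. A single library bore on these calls as well, since without iSCR Dox+ b, leaving the library with 0 counts alone in its group, TFAP2B was called (adjusted p = 0.0123 in edgeR's test), as were 1.61% of all genes.

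Levels of different genes were compared per kilobase of annotated exon. In iKD2 Dox+ the order was VTCN1 at 40.7 ± 6.32 CPM per kb (SD, n = 3 for each gene of this group), GABRP at 23.1 ± 2.22, GATA3 at 21.1 ± 2.60, TFAP2C at 19.4 ± 6.94, HAND1 at 13.7 ± 7.14, TFAP2A at 10.8 ± 4.58, CDX2 at 8.60 ± 3.54, TFAP2B at 3.86 ± 1.82 and GATA2 at 2.33 ± 0.609 CPM per kb. The ranges over libraries did not overlap between VTCN1 and GABRP or between CDX2 and TFAP2B, while those of the other neighbours in this order overlapped. In iKD2 Dox- VTCN1 again came first at 9.63 ± 1.43 CPM per kb (SD, n = 2), followed by TFAP2C at 5.26 ± 0.106 and GATA3 at 5.06 ± 4.23, and HAND1 came last at 0.590 ± 0.318. In iSCR Dox+ VTCN1 was at 23.3 ± 5.80 and GATA3 at 15.2 ± 1.45 CPM per kb (SD, n = 2), and TFAP2B at 0.218 ± 0.308 and GATA2 at 0.00759 ± 0.0107 were last. Exon lengths span all annotated transcripts of a gene, and the transcripts used in these cells were not resolved.

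Counts of the 9 genes were whole numbers to 1 decimal, except for GABRP in iKD2 Dox+. Antisense genes overlap TFAP2A, GATA2, GATA3 and GABRP. GATA2-AS1 was at 0.343 to 4.61 CPM in iKD2 Dox+, 6.77 and 6.21 CPM in iKD2 Dox-, and 0.474 and 0 CPM in iSCR Dox+, and therefore did not follow GATA2 in iKD2 Dox- b. GATA3-AS1 was at 5.80 CPM in iKD2 Dox+ b and at 0 elsewhere. The strand setting of the counting was not stated, so that reads of a gene and its antisense partner may have been mixed.

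The 9 genes were next compared with each other across libraries. Pearson correlations of log2(CPM + 1) over the 7 libraries were above 0 for 35 of the 36 pairs, with a median of 0.65. The groups on which the genes were chosen enter these values, which are therefore given as a description and without a p. The highest were HAND1 with VTCN1 (r = 0.97, rho = 0.96), GATA3 with VTCN1 (r = 0.91, rho = 1), VTCN1 with GABRP (r = 0.90, rho = 0.96) and GATA3 with GABRP (r = 0.89, rho = 0.96). Without the 2 libraries farthest from the median of the first gene named, r was 0.97, 0.97, 0.78 and 0.82 for these pairs. GATA2 followed the other genes least, with a median r of 0.40 to the other 8 and r = -0.04 with GATA3, while it had r = 0.80 with TFAP2B. By level, VTCN1, GABRP, GATA3 and HAND1 were highest in iKD2 Dox+, intermediate in iSCR Dox+ and lowest in iKD2 Dox-. The group means of TFAP2C had the same order, whereas TFAP2A, TFAP2B, GATA2 and CDX2 had their lowest group mean in iSCR Dox+. For TFAP2A the control means were close, at 38.4 CPM in iKD2 Dox- and 37.0 CPM in iSCR Dox+. For TFAP2C they were 15.8 and 18.6 CPM, and the control groups overlapped for TFAP2A, TFAP2C and CDX2.

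Within groups the picture differed. Once each group mean was subtracted, the median r over the 36 pairs was 0.08, and 20 pairs were above 0. Values ranged from -0.99 for GATA2 with GATA3 to 0.83 for GATA3 with GABRP. TFAP2A with VTCN1 and with GATA3 had 0.77 and 0.78, while VTCN1 with GABRP had 0.12 and HAND1 with GABRP -0.29, against 0.90 and 0.86 over all libraries. In 2 of the groups these deviations come from a pair of libraries and mirror each other, so that few independent values stand behind each r.

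**Figure D3:**
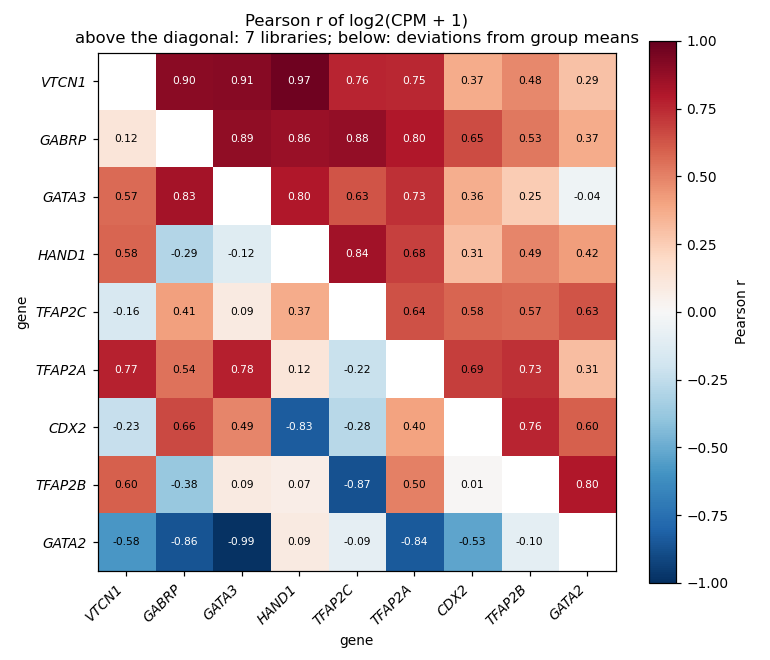
Pearson r of log2(CPM + 1) for each pair of genes, over the 7 libraries (above the diagonal) and for deviations from the group means (below it), on a colour scale from -1 to 1. The upper values have a median of 0.65 and only GATA2 with GATA3 lies below 0, while the lower values have a median of 0.08 and both signs.

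The genes with the pattern most like the mean standardized profile of the 9 were sought among 11750 other genes with a mean level of at least 10 CPM. The first 5 were EZR (r = 0.983 over 7 libraries), DSG2 (r = 0.979), AHNAK (r = 0.971), ZFYVE16 (r = 0.968) and SPARC (r = 0.965). EZR, encoding ezrin, which ties the plasma membrane to actin, was at 575, 499 and 517 CPM in iKD2 Dox+, 282 and 240 CPM in iKD2 Dox- and 333 and 311 CPM in iSCR Dox+. DSG2, a cadherin of desmosomes, was at 324 to 402 CPM in iKD2 Dox+ and at 168 to 232 CPM in the controls. These genes were picked for this likeness, which is a description.

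Keratins and other genes of surface and squamous epithelium were then examined from a list that excludes the 9. Of its 24 genes, 23 were tested, and 11 were higher in iKD2 Dox+ than in iKD2 Dox- by that criterion, with 0 lower. Among all genes, 1.96% were higher and 1.59% lower. In this comparison edgeR's test called 9 of 22926 genes at an adjusted p under 0.05, or 0.0393%, and against iSCR Dox+ 6, or 0.0262%. DSC3, a desmosomal cadherin, rose at the adjusted threshold (199, 120 and 228 CPM against 54.1 and 33.8 CPM, log2 fold change 2.05, SE 0.37, adjusted p = 0.0451 in edgeR's test). It lost the call in edgeR's test without iKD2 Dox+ a (adjusted p = 0.469), without iKD2 Dox+ c (adjusted p = 0.546), without iKD2 Dox- c (adjusted p = 0.18) and at a mean of at least 5 CPM (adjusted p = 0.311). KRT5, a keratin of basal epithelia, had a difference of 2.40 (SE 0.58, adjusted p = 0.264), WNT6 of 3.03 (SE 1.32, adjusted p = 1) and GRHL2, an epithelial transcription factor, of 1.36 (SE 0.47, adjusted p = 1). The list's median was 1.14, and here as in the other lists no median changed when genes at 0 in a group were placed at the bound that 3 counts over that group allow. Against iSCR Dox+ 4 genes met the criterion as higher and 0 as lower, where 3.87% and 2.64% of all genes did, and the median was 0.73. KRT19 differed by 0.78 (SE 0.21, adjusted p = 0.371) and DLX5 by 3.99 (SE 1.54, adjusted p = 0.679). Between the control groups DSC3 and KRT5 were lower in iKD2 Dox- by the criterion (-1.10, SE 0.38, and -1.72, SE 0.60, adjusted p = 0.826 for both) and DLX5 was higher, with a list median of -0.47. KRT14, a defining keratin of epidermis, had at most 0.828 CPM. The summed level of the list was 4265 to 4820 CPM in iKD2 Dox+, 2232 to 2824 CPM in iKD2 Dox- and 2728 to 3748 CPM in iSCR Dox+. A few abundant genes made up a large part of it. KRT8 was at 1228, 1281 and 1279 CPM in iKD2 Dox+, at 776 and 519 CPM in iKD2 Dox- and at 1178 and 764 CPM in iSCR Dox+. CDH1 and KRT19, which the study counts as a duct marker, came next in iKD2 Dox+, with means of 706 and 600 CPM.

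**Figure D4:**
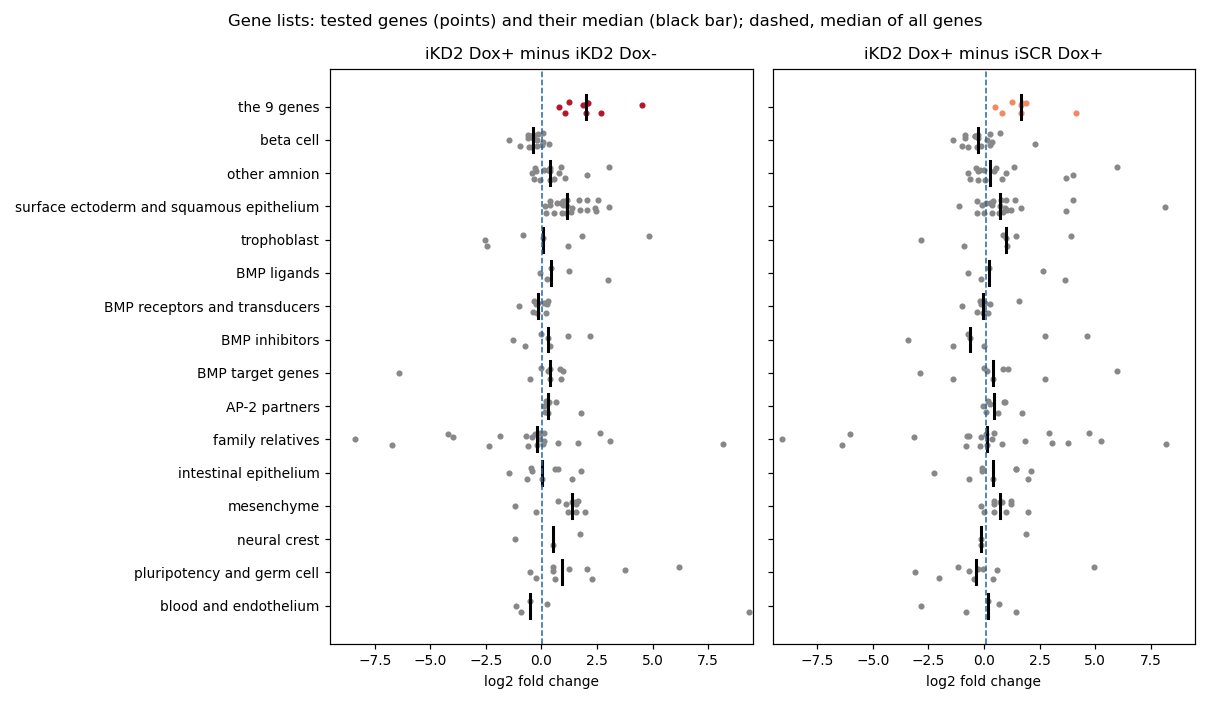
Log2 fold change of every tested gene of each list (points) for iKD2 Dox+ minus iKD2 Dox- (left) and iKD2 Dox+ minus iSCR Dox+ (right), with the list's median (black bar) and the median of all genes (dashed line); GATA2 is not drawn at right, and points beyond 5 in size come from genes near 0 counts in a group. The 9 genes have medians of 2.02 and 1.65, surface ectoderm genes 1.14 and 0.73, mesenchyme genes 1.37 and 0.72, and trophoblast genes 0.08 and 1.0.

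Other genes used to recognise amnion had medians nearer to those of all genes. Of 18 genes, 16 were tested, and 2 met the criterion as higher against iKD2 Dox- and 3 against iSCR Dox+, with 0 lower in each, and the medians were 0.38 and 0.26. Some genes belong to more than 1 list. Among those that met the criterion here, WNT6 and DLX5 were also counted in the surface ectoderm list, and MSX2 among the BMP targets below. NR2F2, a nuclear receptor, was at 142, 171 and 191 CPM in iKD2 Dox+, 95.9 and 101 CPM in iKD2 Dox- and 76.8 and 54.1 CPM in iSCR Dox+ (differences of 0.77, SE 0.30, and 1.36, SE 0.31, with adjusted p = 1 and 0.215). MSX2, a BMP-induced homeobox gene, was at 22.8, 2.50 and 8.01 CPM in iKD2 Dox+, 11.9 and 4.90 CPM in iKD2 Dox- and 0.339 and 0 CPM in iSCR Dox+, so that it was low in iSCR Dox+ as GATA2 was. KRT24 had 0 counts in all libraries. The list's summed level, 2711 to 4605 CPM in iKD2 Dox+ and 3017 to 4266 CPM in the controls, overlapped between groups. This sum mostly follows 1 gene, IGFBP5, which was at 1483 to 2784 CPM in iKD2 Dox+ and at 1869 to 2727 CPM in the controls.

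Trophoblast genes, which share AP-2, GATA and CDX2 factors with amnion, were largely missing. Only 7 of 21 passed the filter, 11 stayed under 1 CPM in every library, and CGB3, CGB5, CGB8, PLAC1, PAGE4 and XAGE2 had 0 counts throughout. In both comparisons 2 met the criterion as higher and 0 as lower, among them SDC1, a surface proteoglycan that other epithelia also express. The medians of the 7 genes were 0.08 against iKD2 Dox- and 1.0 against iSCR Dox+. The summed level of the list was 170 to 327 CPM in iKD2 Dox+ and 96.4 to 147 CPM in the controls.

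Within the BMP pathway, ligands, receptors, inhibitors and targets were counted apart. Of 5 ligands tested, BMP7 met the criterion as higher in both comparisons, at 32.2, 13.0 and 37.8 CPM in iKD2 Dox+ against 2.19 and 4.74 CPM in iKD2 Dox- (a difference of 2.99, SE 1.15, adjusted p = 1) and 1.56 and 7.29 CPM in iSCR Dox+ (2.64, SE 1.13, adjusted p = 0.699). None of 10 receptors and transducers and none of 7 inhibitors tested met it in either direction. Of 9 target genes, 0 met it against iKD2 Dox- and 2, MSX2 and ID4, against iSCR Dox+. ID4, which blocks helix-loop-helix factors, was at 137, 87.8 and 96.2 CPM in iKD2 Dox+ and at 32.3 and 85.4 CPM in iSCR Dox+ (differing by 0.86, SE 0.41, adjusted p = 0.699). The medians of ligands, receptors, inhibitors and targets were 0.42, -0.18, 0.30 and 0.37 against iKD2 Dox- and 0.22, -0.04, -0.65 and 0.42 against iSCR Dox+.

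Partners of AP-2 proteins, such as the CITED and KCTD proteins, were mostly expressed, with 8 of 9 tested, and none met the criterion in the 3 comparisons (medians 0.28 and 0.44 for the 2 differences of iKD2 Dox+). Relatives of the 9 genes, that is, other AP-2, GATA, HAND, CDX, B7 and GABA-A receptor genes, were often silent. Of 34 relatives 21 were tested, 9 had 0 counts in all libraries, among them TFAP2D, GATA1 and CDX4, and the medians were -0.18 and 0.12. In both comparisons 0 were higher by the criterion, with 1 lower against iKD2 Dox- and 2 against iSCR Dox+.

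Markers of other cell types that use some of the 9 genes were read in the same way. Intestinal epithelium, which shares CDX2, had 9 of 12 genes tested and 0 that met the criterion (medians 0.04 and 0.40), and KRT20 had 0 counts. Neural crest, which shares TFAP2A and TFAP2B, had 3 of 8 tested and 0 that met it (medians 0.50 and -0.12), with FOXD3 and PAX7 at 0. Blood and endothelium, which share GATA2, had 5 of 9 tested, of which KDR was higher against iKD2 Dox- by the criterion (medians -0.50 and 0.19). Pluripotency and germ cell genes, which share TFAP2C, had 10 of 11 tested and 0 that met it (medians 0.92 and -0.35), with NANOG under 1 CPM in every library.

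Mesenchyme genes, which share HAND1 with the early mesoderm, were higher in part in the same libraries. All 11 were tested, and 4 met the criterion as higher against iKD2 Dox- and 1 against iSCR Dox+, with 0 lower. SPARC, a matrix protein, rose against iKD2 Dox- (435, 453 and 367 CPM against 121 and 95.4 CPM, log2 fold change 1.95, SE 0.24, adjusted p = 0.000922 in edgeR's test, and called in all 14 alternatives) and had a difference of 1.21 (SE 0.24, adjusted p = 0.116) against iSCR Dox+. COL3A1 differed by 1.54 (SE 0.28, adjusted p = 0.0785) and COL1A2 by 1.64 (SE 0.43, adjusted p = 0.395) against iKD2 Dox-. Between the control groups SPARC (-0.75, SE 0.25, adjusted p = 0.826) and COL3A1 (-1.10, SE 0.29, adjusted p = 0.648) were lower in iKD2 Dox- by the criterion, and the list's medians in the 3 comparisons were 1.37, 0.72 and -0.40. The summed mesenchyme level was 1191 to 1605 CPM in iKD2 Dox+, 399 to 572 CPM in iKD2 Dox- and 838 to 921 CPM in iSCR Dox+, the same order of groups as for VTCN1 and GATA3. COL3A1 and SPARC made up most of this sum. COL3A1 itself overlapped between iKD2 Dox+ (880, 480 and 614 CPM) and iSCR Dox+ (504 and 471 CPM). In the β-cell list, 0 genes were higher by the criterion and 2 were lower, PCSK1 among them, against iKD2 Dox-, and 0 were higher and 4 lower against iSCR Dox+, INS and PDX1 among them, with INS past the adjusted threshold (log2 fold change -0.85, SE 0.10, adjusted p = 0.000471 in edgeR's test). INS lost the call without iKD2 Dox+ a (adjusted p = 0.0638 in edgeR's test) and with limma voom (adjusted p = 0.601), and the β-cell medians were -0.39 and -0.25. The part of epithelial, mesenchymal or β-cell content of the sort in the levels of the 9 genes was not tested.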

How the data were processed

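RNA-seq was performed on 7 libraries of sorted H1-derived β-like cells. Adapter-trimmed reads were quantified with Kallisto and summed per gene with tximport, per the study's methods, and the submitters' processing notes also name fastp; versions, genome build, annotation and strand setting are not given in the sources used here. What the authors deposited is a table of estimated counts for genes, unscaled for depth or length. Kallisto divides reads that fit several genes.

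For the tests, counts were made whole by rounding. The filter was filterByExpr on the groups (22926 of 66025 genes kept) and the scaling was TMM. The robust quasi-likelihood test of edgeR 4.0.16 (R 4.3.3) was run in one fit of 3 groups, with Benjamini-Hochberg adjustment over all genes tested and calls at 0.05. Each standard error was taken as the log2 fold change over the root of F. The criterion of an unadjusted p under 0.05 and over 1.5-fold is that of the study. The fit was tested on simulated data. Correlations used log2(CPM + 1). A count of 0 allows up to 3 counts.

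The 9 genes and the 15 marker lists were chosen with earlier results of these data known. Named beside them are METTL14, INS, list members past the adjusted threshold, at most 3 further per list and comparison (unadjusted p under 0.05, mean of at least 5 CPM, groups not overlapping, largest change), the 5 genes most like the 9 and defining markers near 0. Genes named outside this rule (KRT24, SDC1, KDR, KRT8, CDH1, IGFBP5 and antisense genes) were added after their values were seen. Alternatives were DESeq2 1.42.0, its size factors, limma 3.58.1 voom, other filters, a replicate block, each library left out, and a fit limited to the groups compared. Columns and libraries were all used. Values of some genes of the lists are not reported here.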

Additional observations from a re-analysis of the deposited data

How the results depend on the processing

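The median log2 fold change of the 9 genes ranged over 14 alternatives from 1.93 to 2.14 against iKD2 Dox- and from 1.37 to 2.07 against iSCR Dox+, and all 9 genes were higher in iKD2 Dox+ in each. Between the control groups the median, -0.24, was -0.80 to -0.16 with a library left out (lowest without iKD2 Dox- b). The number of genes called depended on the tool and the libraries, and the cause was not tested. Against iKD2 Dox- (9 genes) it was 231 with DESeq2, 36 with limma voom, 51 without a filter beyond 1 count and 2 at a mean of at least 5 CPM. Against iSCR Dox+ (6 genes) these numbers were 755, 15, 66 and 3, and between the control groups (3 genes) 428 with DESeq2, 32 without the filter and 1 with the stricter one. With only the control groups in the edgeR fit it was 0, with 919 genes at an unadjusted p under 0.05. Leaving out 1 library gave 2 to 115, 2 to 544 and 2 to 445 calls in the 3 comparisons, with the highest numbers without iSCR Dox+ b, a lone library then being assumed to vary like the other groups. In the control comparison DESeq2 called GATA2 (adjusted p = 0.0326) and VTCN1 (adjusted p = 0.00941). TFAP2A changed sign there to -0.05 with limma voom, to -0.80 without iKD2 Dox- b and to -0.16 without iSCR Dox+ a, and TFAP2C, which lay between -0.58 and 0.22 with a library left out, to 0.22 without iSCR Dox+ a.

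Deviations of same-lettered libraries from their group means were not correlated over genes (r between -0.0267 and 0.0158). Deviations in groups of 2 mirror each other, so that these values cannot decide whether the letters mark a pairing. A fit with the replicate block gave 76 calls against iKD2 Dox- and 28 against iSCR Dox+, with medians of 1.95 and 1.69 for the 9 genes. No block could be fitted between the control groups, which share only letter b. The median within-group correlation, 0.08, ranged from -0.13 to 0.11 with a library left out, and was below 0 without either iKD2 Dox- library; over all libraries it was 0.59 to 0.72. The counts of genes clear of the controls without a library, and correlations without GATA2, were chosen after seeing the data. GATA2 and TFAP2B in iSCR Dox+ and HAND1 in iKD2 Dox- rest on few counts, and groups of 2 leave the spread poorly known.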
